A study of Mus musculus with 34 samples.

Results

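The 8 genes described here are markers of the choroid plexus, the secretory epithelium that hangs into the brain ventricles: Ttr, Folr1, Kl, Clic6, Kcnj13, Otx2, Enpp2 and Aqp1. They were taken by symbol from a table of raw read counts, where each matched 1 of 21647 Ensembl identifiers. The table came from bulk RNA sequencing of 34 samples of mouse ependymal cells. These cells were dissociated from lateral ventricular walls at E18.5, grown to confluency and kept without serum for 4 days to differentiate. There were 6 groups: Rfx1-/- (4 samples) and its +/+ siblings (4), Rfx2-/- (6) and its +/+ siblings (8), and Rfx3-/- (6) and its +/+ siblings (6), called KO and WT below. The labels give C57BL/6 as the strain of all groups, while every title also carries the term OF1, which they do not explain. They do not say whether replicates were separate embryos or separate cultures, so p-values measure the spread between samples, which may be technical. No label gives the deleted part of an Rfx gene.

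Choroid plexus epithelium and ependyma are neighbouring sheets that arise from the same neuroepithelium, and both carry cilia. The choroid plexus makes cerebrospinal fluid, carries thyroid hormone and folate into it, and seals blood from fluid with tight junctions. RFX proteins are transcription factors that bind the X-box, a motif built of a pair of half-sites, in front of many ciliary genes. OTX2 is a homeodomain factor needed for the choroid plexus to form.

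Promoters are shown for 2 of the 8 genes: Aqp1, because it fell in Rfx3 KO and its promoter holds an X-box half-site, and Kcnj13, because it passed no knockout test and its promoter holds none. Each sequence is the 250 bases before the RefSeq start site on GRCm38.p6, read 5′ to 3′ on the gene's strand. Capitals mark GTTGCC in Aqp1, at chr6:55336049-55336298 on the plus strand, and TATAAA in Kcnj13, at chr1:87394730-87394979 on the minus strand.
Aqp1: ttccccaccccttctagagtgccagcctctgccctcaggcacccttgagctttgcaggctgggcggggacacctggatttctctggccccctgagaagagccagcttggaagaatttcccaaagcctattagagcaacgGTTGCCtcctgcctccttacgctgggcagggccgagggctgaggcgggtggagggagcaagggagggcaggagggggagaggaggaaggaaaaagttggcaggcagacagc
Kcnj13: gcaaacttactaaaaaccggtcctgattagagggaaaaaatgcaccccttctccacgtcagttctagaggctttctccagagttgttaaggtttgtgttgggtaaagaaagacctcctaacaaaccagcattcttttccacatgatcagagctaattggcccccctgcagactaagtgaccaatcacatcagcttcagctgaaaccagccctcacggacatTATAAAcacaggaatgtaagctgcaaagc
Windows of 300 bases (250 before the start and 50 after it) were found for 4 of the 8 genes, Kl, Kcnj13, Otx2 and Aqp1, and were searched on both strands for exact matches. GTTGCC, which 12.5% of 32851 promoter windows hold, stood 111 bases before the Aqp1 start and in 2 of the 4 Otx2 windows. TATAAA, held by 13.6% of all windows, stood 29 bases before the Kcnj13 start and in 1 Otx2 window. TAATCC, the core that OTX2 and related factors bind, held by 7.06% of all windows, was found in 1 Otx2 window. The other half-site, GTTACC (7.21% of all windows), and the full X-box (0.691%) matched in none of these windows. A match describes letters and is no measured site. The pair shown was picked by test result and motif, and a link between a half-site and a fall was not tested. Otx2, with GTTGCC in 2 of its 4 windows, passed no knockout test. The Aqp1 call in Rfx3 KO was lost in 10 of 12 fits that left out 1 library.

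Libraries held 18.2 to 53.4 M counts. The targeted gene was lower in its knockout in each line: Rfx1 averaged 25.3 ± 4.94 CPM in Rfx1 KO and 66.8 ± 10.6 CPM in WT (SD, n = 4 each), Rfx2 49.2 ± 4.46 CPM in Rfx2 KO (n = 6) and 106 ± 14.8 CPM in WT (n = 8), and Rfx3 39.7 ± 9.13 CPM in Rfx3 KO and 175 ± 17.4 CPM in WT (n = 6 each). CPM here are TMM-scaled, so that libraries of unlike depth can be compared. Some libraries stood apart. The summed level of 12 ependymal markers was 813 to 964 CPM in Rfx3 KO replicates 4 to 6, against 1940 to 2050 CPM in Rfx3 KO replicates 1 to 3 and 2260 to 2750 CPM in Rfx3 WT. Pdgfra, which marks oligodendrocyte precursors, was 64.5 to 100 CPM in Rfx2 KO replicates 1 to 3, against 1.78 to 5.49 CPM in Rfx2 KO replicates 4 to 6. Libraries with counts on Y-linked genes numbered 1 of 4 in Rfx1 KO and 4 of 4 in Rfx1 WT, 3 of 6 in Rfx2 KO and 4 of 8 in Rfx2 WT, and 4 of 6 in Rfx3 KO and 2 of 6 in Rfx3 WT. The part of these differences in the results below was not tested, except where a value without the libraries is given.

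The choroid plexus genes were mostly low in these cultures. On a scale of CPM per kilobase of exon, the mean level over all 34 libraries was 23.1 for Folr1, 2.63 for Kcnj13, 2.17 for Otx2, 1.49 for Enpp2, 1.01 for Ttr, 0.433 for Aqp1, 0.25 for Clic6 and 0.00144 for Kl. Folr1 stood above 84.3% of the genes kept in the fit of all libraries, Kcnj13 above 30.9% and Clic6 above 9.21%, and Kl lay under all of them. Folr1 was clear of the others, while Kcnj13, Otx2, Enpp2 and Ttr differed from their neighbours in this order by less than the spread between libraries, and so did Aqp1 and Clic6. The Ttr mean is not typical of a library, since its median was 0.0276. Other genes known from choroid plexus were not uniformly low: of 24 transport genes listed, 6 averaged under 1 CPM and 9 over 10 CPM, and of 27 genes of secreted proteins and receptors, 5 averaged under 1 CPM and 17 over 10 CPM. The highest of those lists were Atp1b1, a sodium pump subunit gene, at 353 CPM and Igfbp2, a growth factor binding protein gene, at 1440 CPM, which many other cell types also express. In bulk samples, fewer cells of a type and less RNA per cell cannot be told apart.

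**Figure D1:**
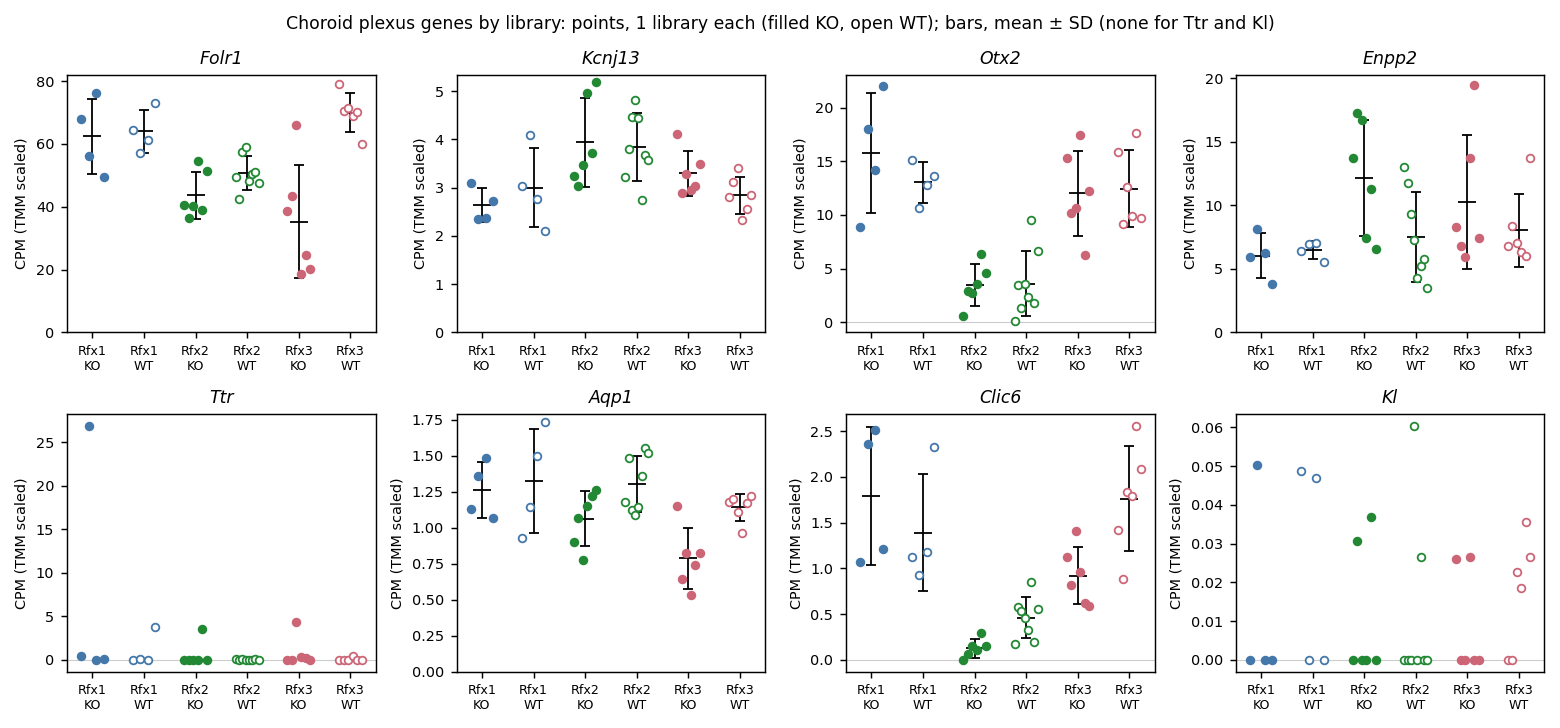
Level of each choroid plexus gene in CPM (vertical axis, its own scale per gene, starting at or just below 0) in the 6 groups (horizontal axis). Each point is 1 library, filled for KO and open for WT. Bars give mean ± SD over libraries and are left out for Ttr and Kl, which were at 0 in many libraries. Folr1 in Rfx3 KO ran from 18.7 to 65.9 CPM, against 60 to 79 CPM in WT.

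In Rfx1 KO none of the 8 genes passed the test against WT, in a comparison where 0.00723% of 13830 genes tested did (1 gene, with 281 at an unadjusted p under 0.05). Rfx1 itself did not pass there (log2 difference -1.4, edgeR adjusted p = 0.0687). The lack of a call in this line therefore does not show a lack of change. In Rfx2 KO 1 of the 8 genes passed, Clic6, where 32.3% of 14305 genes tested passed and 18.4% fell. That call is a description only, since Clic6 had 22 counts over the 6 KO libraries and passed the filter on low counts only through WT, where it is high. In Rfx3 KO 3 of the 8 fell, Folr1, Clic6 and Aqp1, where 23.5% of 14340 genes tested passed and 12.9% fell. None of the 8 passed as higher in these fits. The counts are from edgeR's quasi-likelihood test with a Benjamini-Hochberg adjusted p under 0.05 over all genes tested. In each line 6 of the 8 genes were tested, since Ttr and Kl did not pass the filter on low counts. The median log2 difference of those 6 was -0.07 in Rfx1 KO, -0.17 in Rfx2 KO and -0.30 in Rfx3 KO, beside 0.00, 0.01 and 0.02 over all genes tested. The knockout and WT ranges of every one of the 8 genes overlapped in every line. Of all genes tested, 1.48% in the Rfx1 line, 10.7% in the Rfx2 line and 15.5% in the Rfx3 line did not overlap. For 8 genes the lack of any lies near those shares and is no result about them. Ttr and Kl, at 0 in many libraries, are not among the genes tested. With the replicate number as a block, the Rfx2 calls changed: Enpp2 passed as higher and Folr1 as lower (edgeR adjusted p = 0.0497 and 0.0242), and Clic6 did not pass the filter. The labels do not say whether the numbers pair samples, so the calls with this block are provisional. Without Rfx3 KO replicates 4 to 6, a choice made after seeing the data, 0 of the 8 genes and 996 genes in all were called in the Rfx3 line. That fit has 3 knockouts, and the part of the smaller group in the lost calls was not tested.

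**Figure D2:**
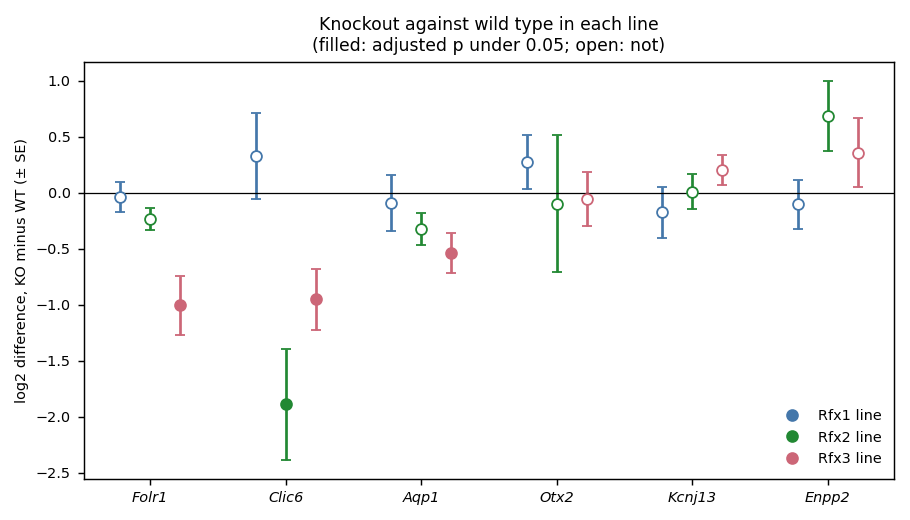
Log2 difference, KO minus WT, with its standard error (vertical axis) for the 6 genes tested (horizontal axis) in the Rfx1, Rfx2 and Rfx3 lines. Filled points passed an adjusted p under 0.05 without a replicate block: Clic6 in the Rfx2 line at -1.89, where it passed the filter only through WT, and Folr1, Clic6 and Aqp1 in the Rfx3 line at -1.004, -0.95 and -0.54.

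Ttr encodes transthyretin, the carrier of thyroxine and of retinol-binding protein in cerebrospinal fluid, and its transcript is among the most abundant of the choroid plexus in vivo. Here it was read in a few libraries only. Of 1002 Ttr counts, 934 (93.2%) lay in 4 libraries, 15 libraries held none, and the next highest library after those 4 held 22. The 4 libraries were Rfx1 KO replicate 2 with 536 counts, Rfx1 WT replicate 4 with 190, Rfx2 KO replicate 5 with 97 and Rfx3 KO replicate 3 with 111. In Rfx1 KO the counts were 8, 536, 1 and 2, against 1, 3, 0 and 190 in Rfx1 WT. Both genotypes of that line thus held 1 high library, and their ranges overlapped. In Rfx2 KO the lowest, median and highest were 0, 0 and 3.57 CPM, against 0, 0.0253 and 0.0831 CPM in Rfx2 WT. In Rfx3 KO they were 0, 0.0929 and 4.35 CPM, against 0, 0.0133 and 0.407 CPM in Rfx3 WT. No fold change is given, since 1 library holds most of the counts in each group but Rfx2 WT, where no library had more than 3.

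Among 9 genes tested that handle thyroid hormone or retinol, 3 rose and 1 fell in Rfx2 KO, and 2 rose and 1 fell in Rfx3 KO. Of all genes tested, 13.9% rose and 18.4% fell in Rfx2 KO and 10.6% rose and 12.9% fell in Rfx3 KO, and every list below is to be read beside those shares. The counts of this list lie near the shares of all genes called, 32.3% and 23.5%, and are no result about the list. Slc7a8, an amino acid transporter gene that also carries thyroid hormone, rose in Rfx2 KO (97.4 ± 10.6 CPM, against 72.4 ± 13.3 CPM in WT, edgeR adjusted p = 0.00966) and fell in Rfx3 KO (37.9 ± 7.59 CPM, against 49.8 ± 4.46 CPM in WT, edgeR adjusted p = 0.0346). Dio3, which inactivates thyroid hormone, averaged 3.1 ± 0.446 CPM in Rfx3 KO and 1.67 ± 0.496 CPM in Rfx3 WT (edgeR adjusted p = 0.00897).

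Folr1 encodes folate receptor alpha, which takes folate across the choroid plexus, and was the highest of the 8 genes. In Rfx3 KO it was 38.6, 43.4, 65.9, 18.7, 24.7 and 20.1 CPM in replicates 1 to 6, against 79, 70.4, 71.4, 68.8, 70.3 and 60 CPM in Rfx3 WT. All of the knockouts but replicate 3 lay under every WT library, and replicates 4 to 6 were lowest. Folr1 averaged 35.2 ± 18.1 CPM in Rfx3 KO and 70.0 ± 6.09 CPM in WT (SD, n = 6 each), a log2 difference of -1.004 ± 0.26 (SE, edgeR adjusted p = 0.0177). The same 3 knockout libraries that were lowest also had the lowest ependymal marker sums. Without them the difference was -0.50 and the edgeR adjusted p 0.0817.

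In the Rfx2 line Folr1 had its lowest, median and highest at 36.3, 40.4 and 54.6 CPM in KO, against 42.5, 49.9 and 59.1 CPM in WT. In KO 4 of 6 libraries lay under every WT library, and the log2 difference of -0.24 ± 0.10 (SE) had an edgeR adjusted p of 0.0751. With the replicate number as a block it was -0.25 and passed (edgeR adjusted p = 0.0242), and without replicates 1 to 3 of both groups it was -0.10 (adjusted p = 0.534). In the Rfx1 line Folr1 was 68, 56, 76.1 and 49.5 CPM in KO, against 64.5, 57.1, 61.2 and 73.1 CPM in WT. These values interleave (log2 difference -0.04, edgeR adjusted p = 0.9998). The knockout effect was 0.96 ± 0.30 (SE, log2) lower in the Rfx3 line than in the Rfx1 line (edgeR adjusted p = 0.0482, where 7.75% of 14833 genes passed). That call was lost in 28 of 34 fits that left out 1 library (adjusted p 0.00352 to 0.144), and without Rfx3 KO replicates 4 to 6 it was -0.46 (adjusted p = 0.153). The Rfx3 and Rfx2 effects differed by -0.78 with an adjusted p of 0.0898, where 3.84% of genes passed.

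Of the 10 genes tested for folate uptake and use, 1 rose and 0 fell in Rfx2 KO, and 2 rose and 2 fell in Rfx3 KO, beside 32.3% and 23.5% of all genes called. The pair that fell in Rfx3 KO were Folr2 and Slc46a1. Folr2, a second folate receptor gene, averaged 1.44 ± 0.245 CPM in Rfx3 KO and 2.28 ± 0.53 CPM in WT (edgeR adjusted p = 0.0187), and was named after its values were seen. Slc46a1, the proton-coupled folate transporter gene, averaged 23.7 ± 4.45 CPM in Rfx3 KO and 30.1 ± 2.41 CPM in WT (edgeR adjusted p = 0.0403). Mthfd1, an enzyme gene of the folate cycle, rose in both: 162 ± 7.32 CPM in Rfx2 KO and 146 ± 6.98 CPM in Rfx2 WT, and 166 ± 4.39 CPM in Rfx3 KO and 144 ± 3.08 CPM in Rfx3 WT (edgeR adjusted p = 0.0109 and 0.00691).

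Kl encodes alpha-Klotho, a co-receptor for FGF23 that is also shed into cerebrospinal fluid. It had 14 counts in all, in 13 libraries, and no library held more than 2. Every library thus lay under 3 counts, and no difference in Kl was detectable at this depth. Its FGF receptor partners were read well. Fgfr1 averaged 557 ± 40 CPM in Rfx3 KO and 484 ± 20.8 CPM in WT (edgeR adjusted p = 0.034), and Fgfr3 190 ± 12.9 CPM in Rfx3 KO and 155 ± 7.09 CPM in WT (edgeR adjusted p = 0.00576). Of the Klotho and FGF receptor list, 2 of 7 rose and 0 fell in Rfx2 KO, and 2 of 6 rose and 1 fell in Rfx3 KO. The pair that rose in Rfx2 KO, Adam10 and Adam17, encode the proteases that shed Klotho.

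Clic6 encodes a chloride intracellular channel protein. It was low throughout and was the gene of the 8 with the smallest share of its variance within groups (18.3%, against 39.8% for Folr1 and 93.7% for Kl). In Rfx2 KO it was 0, 0.0611, 0.149, 0.105, 0.295 and 0.148 CPM, against a lowest, median and highest of 0.173, 0.493 and 0.85 CPM in Rfx2 WT. All knockouts but replicate 5 lay under every WT library. Those levels rest on 22 counts over the 6 KO libraries and 129 counts over the 8 WT libraries, and the gene passed the filter only through WT, where it is high. The fitted log2 difference of -1.89 ± 0.50 (SE, edgeR adjusted p = 0.00967) is therefore given as a description and supports no fall. Without replicates 1 to 3 of both groups it was -1.40 (adjusted p = 0.0993), and with the replicate number as a block Clic6 did not pass the filter.

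In Rfx3 KO Clic6 had its lowest, median and highest at 0.587, 0.888 and 1.41 CPM, against 0.88, 1.81 and 2.56 CPM in WT. Of the 6 knockouts 3 lay under every WT library and all lay under the WT mean. The log2 difference was -0.95 ± 0.27 (SE, edgeR adjusted p = 0.0248), and without KO replicates 4 to 6 it was -0.65 (adjusted p = 0.185). The call was also lost on leaving out KO replicate 5, KO replicate 6, WT replicate 3 or WT replicate 5 (highest adjusted p = 0.0593). In the Rfx1 line Clic6 was 1.07, 2.36, 2.51 and 1.21 CPM in KO, against 1.12, 0.931, 1.18 and 2.33 CPM in WT, with both genotypes spread over the same range (log2 difference 0.33, edgeR adjusted p = 0.9998). The Rfx2 effect was 2.19 lower on the log2 scale than the Rfx1 effect, with an edgeR adjusted p of 0.0842, where 0.829% of genes passed. Without Rfx3 KO replicates 4 to 6, which share the estimate of the spread, that difference was -2.21 and passed (adjusted p = 0.037). Both values rest on the 22 Clic6 counts in Rfx2 KO and are descriptions only. The Rfx3 and Rfx2 effects on Clic6 differed by 0.92 (adjusted p = 0.393). Among the 4 other Clic genes, 2 fell in Rfx2 KO, Clic1 and Clic4, and 0 were called in Rfx3 KO.

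Aqp1 encodes the water channel of the apical choroid plexus membrane. In Rfx3 KO it was 1.15, 0.646, 0.824, 0.532, 0.743 and 0.821 CPM, against 1.18, 1.2, 1.11, 0.961, 1.17 and 1.22 CPM in WT. All knockouts but replicate 1 lay under every WT library. The log2 difference was -0.54 ± 0.18 (SE, edgeR adjusted p = 0.0486), a call lost in 10 of 12 fits that left out 1 library (adjusted p 0.0103 to 0.098) and without KO replicates 4 to 6 (log2 difference -0.36, adjusted p = 0.254). In Rfx2 KO Aqp1 had its lowest, median and highest at 0.777, 1.11 and 1.26 CPM, against 1.09, 1.27 and 1.55 CPM in WT. Of the 6 knockouts 3 lay under every WT library, and the log2 difference was -0.32 ± 0.14 (SE, edgeR adjusted p = 0.0958). In Rfx1 KO it was 1.13, 1.36, 1.48 and 1.07 CPM, against 0.927, 1.14, 1.5 and 1.73 CPM in WT, with no separation (edgeR adjusted p = 0.9998). The 3 effects did not pass a test of their difference (adjusted p = 0.385 to 0.867). Counts behind Aqp1 were 15 to 87 per library. Of the other aquaporins, Aqp4, the main water channel of glia and ependyma, averaged 1010 ± 190 CPM in Rfx2 KO and 768 ± 137 CPM in Rfx2 WT (edgeR adjusted p = 0.0372), and 2 of 6 tested rose and 1 fell in Rfx2 KO, with 0 of 5 rising and 1 falling in Rfx3 KO. The aquaporin called lower in both was Aqp7, named after its values were seen, at 0 to 0.175 CPM in Rfx2 KO and 0.101 to 1.91 CPM in Rfx2 WT, and at 0.106 to 0.469 CPM in Rfx3 KO and 0.568 to 2.04 CPM in Rfx3 WT. It passed the filter through WT, so those calls are descriptions only.

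Kcnj13 encodes Kir7.1, an inward rectifier potassium channel of the apical membrane. Its coefficient of variation over all libraries, 23.2%, was the lowest of the 8 genes, next to 23.7% for Aqp1. In Rfx3 KO it had its lowest, median and highest at 2.88, 3.17 and 4.12 CPM, against 2.33, 2.82 and 3.41 CPM in WT. In Rfx2 KO they were 3.03, 3.59 and 5.19 CPM, against 2.74, 3.74 and 4.81 CPM in WT. In Rfx1 KO it was 3.1, 2.36, 2.38 and 2.72 CPM, against 3.03, 4.09, 2.77 and 2.11 CPM in WT. Knockout and WT interleaved in each line, with log2 differences of 0.21 ± 0.13, 0.01 ± 0.15 and -0.17 ± 0.23 (SE) in Rfx3, Rfx2 and Rfx1 KO (edgeR adjusted p = 0.282, 0.964 and 0.9998). Kcnj13 lies within Gigyf2, on the other strand and with overlapping exons. Gigyf2 was read at 58.6 to 110 CPM, and since the strandedness of the counts is not given, reads of these genes cannot be told apart. Kcnj16, another inward rectifier gene, fell in both Rfx2 KO (55.8 ± 18.3 CPM, against 108 ± 23.8 CPM in WT, edgeR adjusted p = 0.00245) and Rfx3 KO (50.5 ± 19.3 CPM, against 125 ± 18.2 CPM in WT, edgeR adjusted p = 0.00258). Of the inward rectifiers tested, 1 of 5 rose and 1 fell in Rfx2 KO, and 2 of 6 rose and 1 fell in Rfx3 KO.

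Enpp2 encodes autotaxin, the secreted enzyme that makes lysophosphatidic acid. In Rfx2 KO it was 13.7, 17.3, 16.7, 7.45, 11.3 and 6.56 CPM, against a lowest, median and highest of 3.47, 6.53 and 13 CPM in WT. Replicates 1 to 3 of the knockouts lay above every WT library, and the highest WT libraries were replicates 1 and 2, at 13 and 11.8 CPM. Pdgfra was high in the same libraries, at 64.5, 100 and 96.2 CPM in KO replicates 1 to 3, against 70.2 and 85.8 CPM in WT replicates 1 and 2. The log2 difference of Enpp2 was 0.69 ± 0.31 (SE, edgeR adjusted p = 0.108). With the replicate number as a block it was 0.53 and passed at an adjusted p of 0.0497, and without replicates 1 to 3 of both groups it was 0.69 (adjusted p = 0.0782).

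In Rfx3 KO Enpp2 was 8.26, 6.84, 5.92, 13.7, 19.5 and 7.47 CPM, against 6.8, 8.36, 7, 6.34, 6 and 13.7 CPM in WT. KO replicates 4 and 5 and WT replicate 6 were high, and they also had the highest Pdgfra of the line, at 99.9 and 134 CPM in those knockouts, against 102 CPM in that WT library. The log2 difference was 0.36 ± 0.31 (SE, edgeR adjusted p = 0.431), and -0.19 without KO replicates 4 to 6. In Rfx1 KO Enpp2 was 5.97, 8.15, 6.24 and 3.79 CPM, against 6.39, 6.98, 7.05 and 5.55 CPM in WT, with no separation (edgeR adjusted p = 0.9998). Oligodendrocyte precursors are a known source of Enpp2 in brain, and the part of those cells in these values was not tested. The summed level of 14 oligodendrocyte-lineage markers was 353 to 738 CPM in Rfx2 KO and 432 to 686 CPM in Rfx2 WT, and 644 to 919 CPM in Rfx3 KO and 577 to 814 CPM in Rfx3 WT. Of the genes that make, break down or sense lysophosphatidic acid, 0 of 13 rose and 5 fell in Rfx2 KO, and 2 of 12 rose and 3 fell in Rfx3 KO. Those that fell in Rfx2 KO included 4 receptor genes of the Lpar family. Lpar3 averaged 1.06 ± 0.364 CPM in Rfx2 KO and 5.73 ± 2.16 CPM in WT (log2 difference -2.44, edgeR adjusted p = 9.91e-05).

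Otx2 encodes the transcription factor of choroid plexus development. It varied more between lines and libraries than with genotype. In Rfx2 KO it was 0.565, 2.87, 2.72, 3.6, 6.33 and 4.6 CPM, against 0.139, 3.51, 1.28, 3.6, 2.38, 9.49, 1.77 and 6.61 CPM in WT. Replicate 1 was lowest in both genotypes, and the ranges overlapped (log2 difference -0.10 ± 0.61, SE, edgeR adjusted p = 0.923). In Rfx3 KO its lowest, median and highest were 6.27, 11.4 and 17.5 CPM, against 9.12, 11.2 and 17.6 CPM in WT. In Rfx1 KO it was 8.9, 18, 14.2 and 22 CPM, against 15.1, 10.6, 12.8 and 13.6 CPM in WT. Neither line separated by genotype, with log2 differences of -0.06 ± 0.24 in Rfx3 KO and 0.27 ± 0.24 (SE) in Rfx1 KO (edgeR adjusted p = 0.896 and 0.9998).

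The WT groups of the 3 lines were compared for all of the 8 genes but Kl, in a test that 57.7% of 14833 genes passed. Clic6, Otx2, Kcnj13 and Ttr passed, a share near that of all genes and so no result about the 8. Clic6 averaged 0.458 ± 0.224 CPM in Rfx2 WT (n = 8), 1.76 ± 0.573 CPM in Rfx3 WT (n = 6) and 1.39 ± 0.634 CPM in Rfx1 WT (n = 4), with an edgeR adjusted p of 3.69e-05. Otx2 averaged 3.6 ± 3.07 CPM in Rfx2 WT, 12.5 ± 3.57 CPM in Rfx3 WT and 13 ± 1.88 CPM in Rfx1 WT (adjusted p = 0.00119). Both were lowest in the Rfx2 line. Kcnj13 went the other way, at 3.84 ± 0.698 CPM in Rfx2 WT, 2.84 ± 0.386 CPM in Rfx3 WT and 3 ± 0.822 CPM in Rfx1 WT (adjusted p = 0.0227). That call was lost on leaving out Rfx2 WT replicate 4 or 5 (highest adjusted p = 0.0587). Folr1, Aqp1 and Enpp2 did not pass (adjusted p = 0.0622, 0.387 and 0.729), and Ttr passed at 0.031 through 1 library, Rfx1 WT replicate 4, without which its adjusted p was 0.82. A line and any batch in which it was grown or sequenced cannot be told apart.

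The 8 genes did not vary as 1 group across libraries. As a measure of likeness, Pearson's r of log2 CPM was taken over the 34 libraries after subtracting each group's mean. The libraries are the same for every gene, so they share depth, scaling and culture. The highest r between any pair of the 8 was 0.67, for Clic6 and Otx2 (Spearman's rho 0.573), and only 9 of 14833 genes lay closer to Clic6 than Otx2 did. The lowest was -0.49, for Otx2 and Enpp2, and Folr1 and Enpp2 had -0.42. Folr1 had 0.25 with Clic6 and 0.26 with Aqp1. All of them were called in Rfx3 KO, but subtracting group means removes a shared fall from r.

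**Figure D3:**
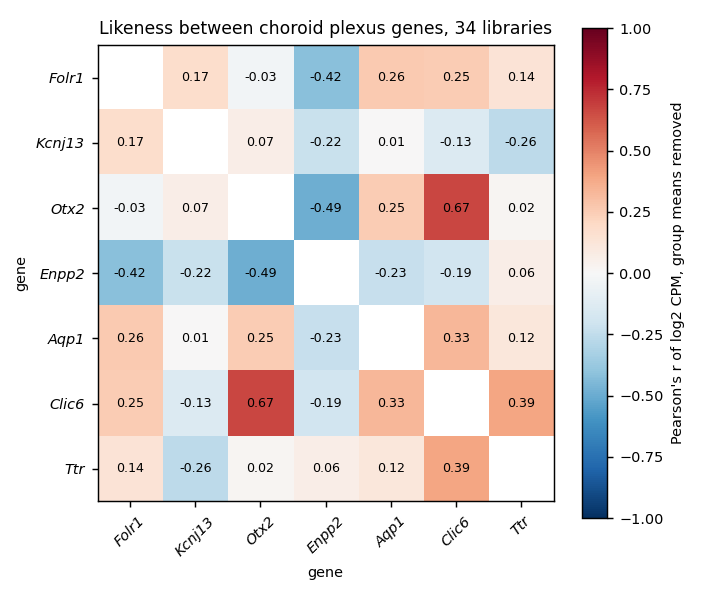
Pearson's r of log2 CPM between 7 of the choroid plexus genes over 34 libraries, after subtracting group means (colour, blue for negative and red for positive, with the value in each cell). Kl is left out because its counts are too few. Clic6 and Otx2 stand out at 0.67, and Enpp2 is negative with Otx2 and Folr1.

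The genes closest to each of the 8 differed. Otx2 lay closest to Six3 (r = 0.96), Thsd4 (0.872) and Vax1 (0.861), of which Six3 and Vax1 encode homeodomain factors of the ventral and anterior forebrain. In the Rfx2 line Six3 was lowest in replicate 1 of both genotypes, at 5.98 CPM in KO and 1.7 CPM in WT, as was Otx2. Folr1 lay closest to Mt2 (0.947), Smco4 (0.933) and Mt1 (0.929). Mt1 and Mt2 encode metallothioneins, which bind zinc and copper. In Rfx3 KO Mt2 was 1410, 1310, 2460, 741, 873 and 704 CPM, against 1340, 1260, 1290, 1170, 1240 and 1330 CPM in WT. Knockout replicate 3 was the highest and replicates 4 to 6 the lowest of the line for Mt2, and the same 4 libraries were the highest and the lowest of the knockouts for Folr1. For both genes the SD was largest in Rfx3 KO, so r leans most on that group. Unlike Folr1, Mt2 had a like mean in both genotypes, at 1250 ± 663 CPM in Rfx3 KO and 1270 ± 62 CPM in WT.

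Enpp2 lay closest to Dscam (0.895), Stk32b (0.871) and Scn8a (0.863). Dscam, a neural adhesion gene, was 6.04, 7.27 and 6.16 CPM in Rfx2 KO replicates 1 to 3 and 0.223 to 0.664 CPM in Rfx2 KO replicates 4 to 6, in the same order as Pdgfra. Clic6 lay closest to Espn (0.743), Lrrc1 (0.722) and Kiz (0.715). Espn, which encodes an actin-bundling protein, was read at 0.863 to 1.28 CPM in Rfx2 KO, against 1.41 to 2.63 CPM in Rfx2 WT, and at 1.67 to 3.14 CPM in Rfx3 KO, against 2.92 to 4.23 CPM in Rfx3 WT. Aqp1 had no gene above 0.762 (Ascl2), Kcnj13 none above 0.691 (Dlat and Fbxo33) and Ttr none above 0.68 (Vtn). For Kl the counts were too few to read a likeness.

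**Figure D4:**
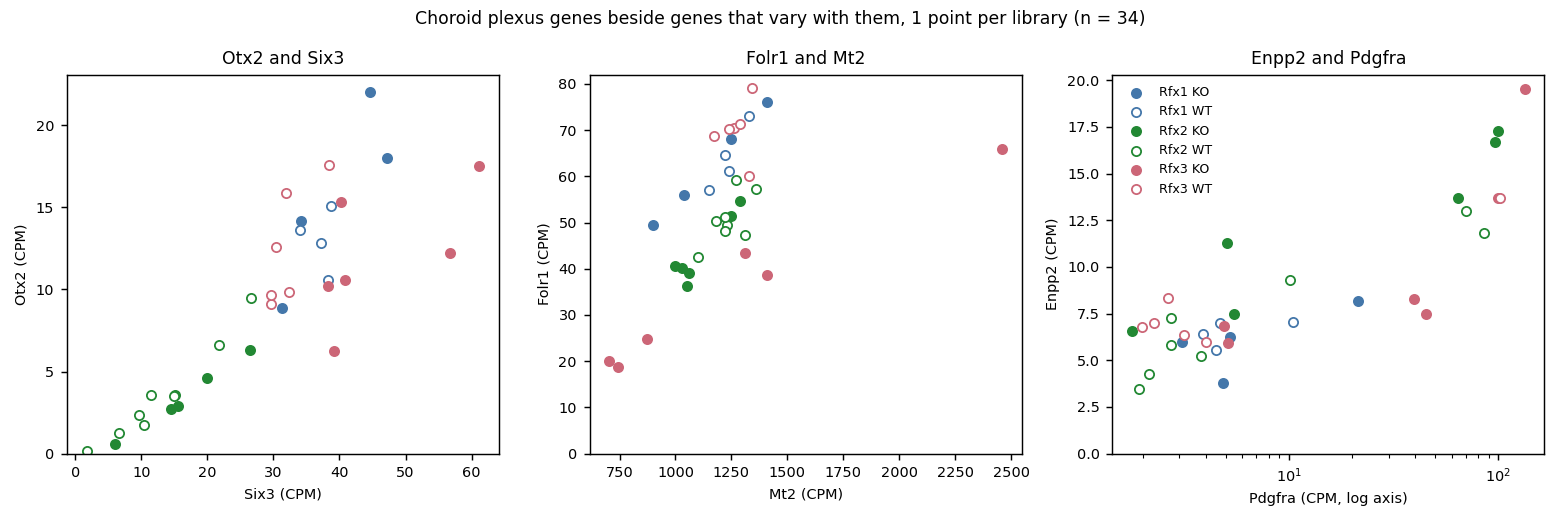
Level in CPM of Otx2 beside Six3, Folr1 beside Mt2 and Enpp2 beside Pdgfra (log horizontal axis), 1 point per library, filled for KO and open for WT and coloured by line. Otx2 was lowest where Six3 was lowest, in the Rfx2 line, Rfx3 KO replicates 4 to 6 sit at the low end of both Folr1 and Mt2, and the 8 libraries highest in Enpp2 were the 8 highest in Pdgfra, at 64.5 to 134 CPM.

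Other genes known from choroid plexus epithelium were counted in lists. Of the list of transporters and pumps, 3 of 20 tested rose and 5 fell in Rfx2 KO, and 3 of 21 rose and 7 fell in Rfx3 KO, where 32.3% and 23.5% of all genes tested were called. The 5 include Kcnq1, at 0.0699 to 0.258 CPM in Rfx2 KO and 0.177 to 1.22 CPM in Rfx2 WT. It passed the filter through WT, so its call is a description only. Slc2a12, a glucose transporter gene, fell in both, at 23.3 ± 2.23 CPM in Rfx2 KO and 33.9 ± 3.62 CPM in Rfx2 WT, and at 16.8 ± 4.43 CPM in Rfx3 KO and 36.7 ± 3.36 CPM in Rfx3 WT (edgeR adjusted p = 0.000256 and 0.000781). Slco1c1, a thyroxine transporter gene, rose in Rfx3 KO (40.9 ± 4.91 CPM, against 17.4 ± 3.9 CPM in WT, edgeR adjusted p = 0.000374). Of junction and keratin genes, 2 of 8 rose and 4 fell in Rfx2 KO, and 0 of 7 rose and 3 fell in Rfx3 KO. The 2 that rose include Cdh1, at 0.175 to 1.14 CPM in Rfx2 KO and 0.0937 to 0.45 CPM in Rfx2 WT. These levels are low, so its call is a description only. Krt18, an epithelial keratin gene, averaged 5.75 ± 1.25 CPM in Rfx2 KO and 12.1 ± 3.8 CPM in Rfx2 WT, and 4.37 ± 0.812 CPM in Rfx3 KO and 8.81 ± 1.2 CPM in Rfx3 WT (edgeR adjusted p = 0.00153 and 0.000846). Krt8 and Tjp3 also fell in both.

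Of secreted proteins and receptors, 2 of 23 rose and 8 fell in Rfx2 KO, and 4 of 22 rose and 3 fell in Rfx3 KO, where 13.9% of all genes rose and 18.4% fell in Rfx2 KO, and 10.6% rose and 12.9% fell in Rfx3 KO. The 2 that rose include Prlr, at 0.266 to 0.664 CPM in Rfx2 KO and 0.208 to 0.484 CPM in Rfx2 WT. These levels are low, so its call is a description only. Calml4, a calmodulin-like gene, averaged 19.8 ± 12.2 CPM in Rfx3 KO and 54.6 ± 6.17 CPM in WT (edgeR adjusted p = 0.0102). Of 14 regulators of the choroid plexus and the cortical hem beside it, 3 rose and 4 fell in Rfx2 KO, and 1 rose and 1 fell in Rfx3 KO. The 3 include Rspo2, at 0.52 to 2.34 CPM in Rfx2 KO and 0.127 to 0.632 CPM in Rfx2 WT. Its KO libraries, where it is high, could carry it past the filter, so its call is a description only. Lmx1a, a homeodomain gene of the hem and choroid plexus, rose in Rfx2 KO (13.6 ± 3.51 CPM, against 8.33 ± 1.53 CPM in WT, edgeR adjusted p = 0.00365) and fell in Rfx3 KO (6.2 ± 1.12 CPM, against 10.1 ± 2.31 CPM in WT, edgeR adjusted p = 0.0122). The list's other called genes in Rfx2 KO included Foxj1, Mcidas and Trp73, regulators of multiciliated cells in general. None of these lists had a gene called in Rfx1 KO, where Rfx1 itself was not called either. Beside them, 10 of 11 ependymal markers tested fell in Rfx2 KO and 9 of 12 in Rfx3 KO. The 10 include Tmem212, at 0.0371 to 0.332 CPM in Rfx2 KO and 0.632 to 10.9 CPM in Rfx2 WT. Tmem212 passed the filter through WT, so its call is a description only. The part of ependymal cell number or state in the choroid plexus genes was not tested.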

How the data were processed

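RNA of 34 samples was measured by bulk RNA sequencing (TruSeq, per the labels). Raw, not normalized counts of reads for each Ensembl gene were deposited by the authors. Per the submitters' processing notes they used CASAVA 1.8.2, STAR 2.4 and featureCounts 1.4.6 with GRCm38. The strandedness, settings and gene annotation of the counting were not given in the sources used here. Of 21647 identifiers, 21583 matched GENCODE M21, the source of symbols and exon lengths. Antisense and overlapping genes (Gigyf2 for Kcnj13, Otx2os1 for Otx2, Gm26684 for Enpp2) may share reads. The 85 replicate pairs all differed beyond counting error: chi-squared divided by its degrees of freedom was 4.11 or more.

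For every line a separate model was fitted (edgeR 4.0.16, R 4.3.3): filterByExpr (minimum count 10, total 15), TMM, and the two-sided quasi-likelihood F test, with Benjamini-Hochberg adjustment over all genes kept and a threshold of 0.05. The SE of a log2 difference was derived from that test. CPM were computed from the deposited counts with TMM factors of all libraries. Lines and WT groups were compared in 1 fit of all 34 libraries. For likeness, log2 CPM used a prior count of 2. Alternatives were DESeq2 1.42.0, limma-voom (limma 3.58.1), RLE factors, no filter, a replicate block, all libraries in 1 fit, and leaving out libraries. The fits were also run on simulated counts, with the same spread for every gene and changes only in genes better read than Aqp1 and Clic6. Those runs do not bear on the calls of such low genes. Named genes are the 8 genes, the targeted genes, up to 3 called genes with the smallest p per list and line (mean log2 CPM at least 1) and the 3 most alike genes. Pdgfra, Gigyf2, Atp1b1, Igfbp2, Folr2, Aqp7, Kcnq1, Rspo2, Cdh1 and Prlr are outside this rule and were named after their values were seen. One result that the rule names is not reported here. The genes and lists were chosen with earlier results of these data known.

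Replicate numbers come from the sample titles. Same-numbered samples deviated together in the Rfx2 line (correlations of deviations 0.16 to 0.614, all over 0.1 in 6 pairs). The numbers were therefore taken as pairing there, with WT replicates 7 and 8 left out of that fit. Samples of unlike number were not compared. Rfx2 KO replicates 1 to 3 differed less among themselves (chi-squared per degree of freedom 4.11 to 7.75) than from replicates 4 to 6 (26.5 to 51.5). Pairing by number and such a block of replicates cannot be told apart by these correlations. The main Rfx2 results are still from the fit without this block. In the Rfx1 line the correlations were 0.449, 0.315, -0.087 and 0.238, and in the Rfx3 line they ran from -0.365 to 0.204. Since these were not all over 0.1, the numbers were not taken as pairing in those lines, although most Rfx1 pairs deviated together.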

Additional observations from a re-analysis of the deposited data

Results flagged for a closer look

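Of 48 sets of libraries (8 genes in 6 groups), 8 held a library far above the rest of its group. The cut-off gives about 1 in 20 by chance only for normally distributed values. The sparse counts of Ttr and Kl are not of that kind, so no excess over chance is read from the 8. For Ttr these were Rfx1 KO replicate 2 at 26.9 CPM (next 0.451), Rfx2 KO replicate 5 at 3.57 CPM (next 0.0299), Rfx3 KO replicate 3 at 4.35 CPM (next 0.293), Rfx1 WT replicate 4 at 3.78 CPM (next 0.155) and Rfx3 WT replicate 4 at 0.407 CPM (next 0.0355). Rfx3 KO replicate 3 was also the library with the highest Mt2 of all, at 2460 CPM. For Kl they were Rfx1 KO replicate 2 at 0.0503 CPM and Rfx2 WT replicate 4 at 0.0605 CPM, which are 1 and 2 counts. For Enpp2 it was Rfx3 WT replicate 6 at 13.7 CPM (next 8.36), the library with the highest Pdgfra of its group at 102 CPM.

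The knockout effect on Folr1 differed between lines: it was -0.96 on the log2 scale in the Rfx3 line relative to the Rfx1 line, at an edgeR adjusted p of 0.0482, a call that most fits with 1 library left out did not keep.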

How the results depend on the processing

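The values are limited by low counts: Ttr and Kl could not be fitted within a line, and Clic6 in the Rfx2 line was kept by the filter in 8 of 14 fits with 1 library left out. Knockout effects on the 8 genes that were near 0 changed sign between settings, and the cause was not tested. For Kcnj13 in the Rfx2 line they were -0.003 (limma-voom) and -0.009 (replicate block), for Otx2 there 0.186 (limma-voom), 0.269 (replicate block) and 0.001 (without replicates 1 to 3 of both groups), and with Rfx3 KO replicates 4 to 6 left out Enpp2 was -0.191 in the Rfx3 line and -0.083 for Rfx3 minus Rfx1. Genes called in the Rfx1 line were 9 with DESeq2, 2 with no filter, 6 with all 34 samples in 1 fit and 0 with the replicate block, against 1. In the Rfx3 line they were 5367 with all 34 samples, 2205 with the replicate block and 996 without KO replicates 4 to 6, against 3374, and of the 8 genes 1 and 0 were called in the last pair of settings, against 3. DESeq2 gave Aqp1 there an adjusted p of 0.0519 and no filter 0.0752. In the Rfx2 line, 2 of the 8 were called with the replicate block and 0 without replicates 1 to 3, against 1. The block's calls were Folr1 and Enpp2, and that without it was Clic6, so none was shared. With 1 library left out, the 8 genes gave 0 to 2 calls in the Rfx2 line and 1 to 3 in the Rfx3 line, all genes gave 0 to 9 calls in the Rfx1 line, 3974 to 5270 in the Rfx2 line and 2139 to 5549 in the Rfx3 line, and the difference of effects gave 46 to 292 (Rfx2 minus Rfx1), 286 to 2041 (Rfx3 minus Rfx1) and 412 to 961 (Rfx3 minus Rfx2) genes, with 0 to 1 of the 8 in each. Without Rfx3 KO replicates 4 to 6 those differences had 721, 284 and 1964 genes and 1, 0 and 0 of the 8. The 1 was Clic6, whose few counts in Rfx2 KO make the call a description only. With no filter, 0 of the 8 were called for Rfx3 minus Rfx1.

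Effects that changed sign with 1 library left out ranged, in the Rfx1 line, from -0.223 to 0.083 for Aqp1, -0.283 to 0.072 for Enpp2, -0.15 to 0.06 for Folr1 and -0.318 to 0.008 for Kcnj13. In the Rfx2 line they were -0.072 to 0.084 for Kcnj13 and -0.353 to 0.294 for Otx2, and in the Rfx3 line -0.198 to 0.079 for Otx2. Between lines they were -0.003 to 0.354 for Kcnj13, -0.644 to 0.006 for Otx2 and -4.414 to 6.577 for Ttr (Rfx2 minus Rfx1), -3.7 to 5.503 for Ttr (Rfx3 minus Rfx1), and -0.317 to 0.333 for Otx2 and -3.829 to 4.758 for Ttr (Rfx3 minus Rfx2).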
